A study of Homo sapiens with 24 samples.

Results

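BCL2, BCL2L1, MCL1 and BCL2L2 encode BCL-2, BCL-XL, MCL-1 and BCL-W, anti-apoptotic members of the BCL2 family, and their RNA was followed in cells treated with JAK inhibitors. The 4 genes were taken by symbol from a deposited table of read counts that held 34213 genes, whatever their values, and all 4 were among the 16076 genes with enough reads to be tested. All cells were HEL, a line from a human erythroleukaemia in which JAK2 is mutated to an active form, so every group shares that mutation and 1 genetic background. The control groups received the solvent DMSO, and the treated groups received ruxolitinib, fedratinib, momelotinib, pacritinib or itacitinib at 500 nM. Treatment lasted 4 h or 48 h, which gives 12 groups of 2 libraries and 24 libraries in total.

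BCL-2, BCL-XL, MCL-1 and BCL-W sit mainly in the outer membrane of mitochondria and hold back BAX and BAK, the proteins that open pores in that membrane. BH3-only proteins such as BIM, PUMA and NOXA start apoptosis by binding into a groove on the survival proteins, and released cytochrome c then activates caspases through APAF1. In red cell precursors, erythropoietin signals through JAK2 and STAT5, and BCL-XL is a known survival protein of that path. MCL-1 RNA and protein are short-lived, and BCL-2 is the target of the drug venetoclax in leukaemia.

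The groove that binds BH3-only proteins is formed in part by the BH1 region, whose Asn-Trp-Gly-Arg core all 4 proteins share. The 60 coding bases around that core are shown because they let the 4 transcripts be compared around a point that all 4 proteins share. They were read 5′ to 3′ on the sense strand from GENCODE 29 transcripts (GRCh38), with the codons of the core in capitals. The stretch of BCL2 lies in exon 1 of 2 of transcript BCL2-202 (chr18:63318205-63318264, minus strand), and that of BCL2L1 in exon 2 of 3 of BCL2L1-201 (chr20:31721778-31721837, minus strand). The stretch of MCL1 lies in exon 2 of 3 of MCL1-202 (chr1:150578367-150578426, minus strand), and that of BCL2L2 in exon 3 of 4 of BCL2L2-201 (chr14:23308017-23308076, plus strand).
BCL2: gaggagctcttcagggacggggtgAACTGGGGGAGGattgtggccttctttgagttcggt
BCL2L1: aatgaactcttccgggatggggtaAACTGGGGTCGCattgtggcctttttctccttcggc
MCL1: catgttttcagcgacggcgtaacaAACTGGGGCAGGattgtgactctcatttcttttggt
BCL2L2: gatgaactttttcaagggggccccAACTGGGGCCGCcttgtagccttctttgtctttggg

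BCL2 and BCL2L1 were the most alike over this stretch, with 45 of 60 bases identical (75%). BCL2L1 and BCL2L2 shared 40 bases, BCL2 and BCL2L2 shared 38, and BCL2 and MCL1 shared 35. MCL1 shared 33 bases with BCL2L1 and 33 with BCL2L2. Over whole transcripts, the longest run identical between any pair of the genes was 11 to 14 bases, so the 4 are not near-identical copies.

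The genes lie on 4 chromosomes (GRCh38, GENCODE 29). BCL2 (ENSG00000171791) spans chr18:63123346-63320128, BCL2L1 (ENSG00000171552) chr20:31664452-31723989, and MCL1 (ENSG00000143384) chr1:150574551-150579738, all on the minus strand. BCL2L2 (ENSG00000129473) spans chr14:23298790-23311759 on the plus strand. BCL2L2 shares 206 exon bases with PPP1R3E on the opposite strand and 813 with the readthrough gene BCL2L2-PABPN1, whose counts were 1 to 15 per library. BCL2L2-PABPN1 lies on the same strand as BCL2L2, so reads in their shared bases cannot be told apart by strand. How such reads were counted is not given, so the low count does not show that the readthrough is rare. Because the sources used here do not say whether reads were counted by strand, reads of PPP1R3E (214 to 506 counts per library) and BCL2L2 cannot be told apart where they overlap. BCL2L1 shares 1424 of its 3314 exon bases with the antisense gene ABALON, which was not analysed here, and reads of these genes cannot be told apart there for the same reason. This limit holds for every BCL2L1 value given here.

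Total counts were 32153866 to 56618281 per library, and those of the members ran from 170 (BCL2, ruxolitinib at 4 h) to 11397 (BCL2L1, itacitinib at 48 h). Whether the replicates came from separate cultures is not stated in the labels, so the p-values rest on library-to-library spread alone, which can be technical. The erythroid list (7 genes, among them GATA1, KLF1, HBG1, HBG2, TFRC and ALAS2) summed to 3350 to 5730 CPM (a gene's count scaled to the library's total) and the megakaryocytic list (ITGA2B, GP6, PF4, TAL1) to 1180 to 1470, the lineages HEL is known to resemble. Summed CPM was 20.4 to 31.5 for T-cell, 3.26 to 7.84 for B-cell, 34.5 to 42.6 for monocyte, 0.421 to 1.21 for epithelial and 0.282 to 1.08 for fibroblast markers. CD2, CD79A and LYZ made up most of the first 3 sums, while CD3D, CD14, EPCAM and DCN each had a library with 0 counts and did not pass 0.31 CPM in any. ITGA2B and TAL1 made up most of the megakaryocytic sum, while GP6 was at 5.59 to 39.8 CPM and PF4 at 1.49 to 3.7. The RN7SL share, which can vary with library preparation, was 2.42 and 2.52% for DMSO at 4 h and 2.80 to 3.98% for the 10 inhibitor libraries of that time. For DMSO at 48 h it was 3.05 and 3.36%. The share of mitochondrial ribosomal RNA was 0.0181 and 0.00715% for DMSO at 4 h and 0.0586 and 0.0912% for DMSO at 48 h. The part of these shares in the results at 4 h and in the differences between times was not tested. In these bulk libraries, fewer cells of a type and less RNA per cell cannot be told apart.

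BCL2L1 and MCL1 made up nearly all of the summed RNA of the 4 genes. As CPM per kilobase of exon (RPKM), the median over the 24 libraries was 61.0 for BCL2L1, 43.1 for MCL1, 3.97 for BCL2L2 and 0.901 for BCL2. In the DMSO libraries at 4 h, BCL2L1 held 56.4% ± 0.309 (SD, n = 2) of the summed RPKM of the 4 genes and MCL1 39.7% ± 0.0722. BCL2L2 held 3.06% ± 0.251 and BCL2 0.815% ± 0.0144. By length-scaled level, BCL2L1 was thus the highest of the 4 genes in the DMSO libraries of 4 h and BCL2 the lowest. Counts are per gene, so the forms made from 1 gene, such as BCL-XL among the products of BCL2L1, were not told apart.

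The share of BCL2L1 was lower and that of MCL1 higher with ruxolitinib and pacritinib at 4 h than with DMSO. With ruxolitinib, the BCL2L1 share was 46.7% ± 1.69 and the MCL1 share 47.7% ± 1.25 (SD, n = 2). With pacritinib they were 47.8% ± 0.448 and 47.4% ± 0.652, and with momelotinib 49.9% ± 2.53 and 45.2% ± 2.65. The largest share of BCL2L1 was 60.5% ± 0.898, with fedratinib at 48 h, where MCL1 held 35.3% ± 0.593. With ruxolitinib at 48 h, BCL2L1 held 53.8% ± 0.677, against 57.8% ± 0.800 with DMSO. BCL2L2 held its largest share, 4.98% ± 0.365, with ruxolitinib at 4 h, where its own level in CPM overlapped that of DMSO. These shares are descriptions and were not tested, and they move with the length given to each gene. With the longest coding transcript as length, BCL2L1 and MCL1 held 49.8% and 44.5% with ruxolitinib at 4 h, which turns their order, 50.9% and 44.2% with pacritinib, and 59.4% and 36.6% with DMSO.

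**Figure D1:**
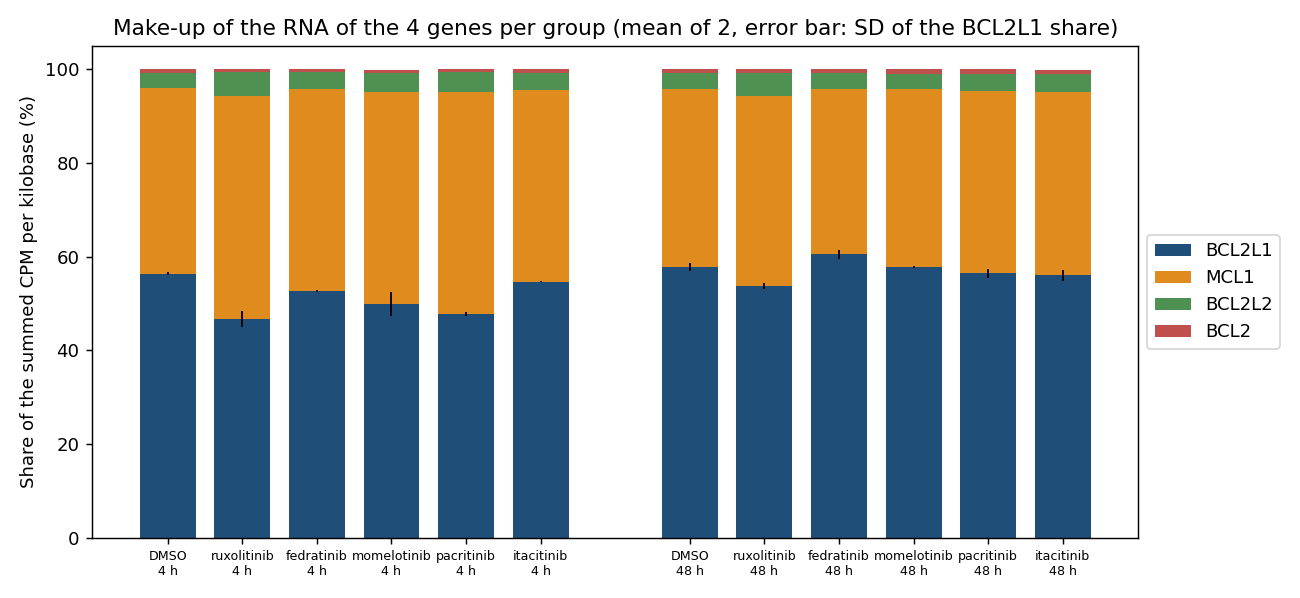
Make-up of the RNA of the 4 genes in each of the 12 groups: the vertical axis is the share of the summed CPM per kilobase of exon in percent, bars are means of 2 libraries, and error bars are the SD of the BCL2L1 share. BCL2L1 falls from 56.4% with DMSO to 46.7% with ruxolitinib at 4 h and reaches 60.5% with fedratinib at 48 h.

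Each inhibitor was compared with DMSO of the same time to ask whether it changed these genes, by edgeR's quasi-likelihood test with p adjusted over all 16076 genes and a call at an adjusted p under 0.05. All comparisons of 1 time share the same DMSO libraries. At 4 h, 11 of the 20 results for members (4 genes by 5 inhibitors) were called, all of them lower than DMSO. At 48 h, 3 were called lower and 2 higher. The calls at 4 h spread over 4 inhibitors, whereas 4 of the 5 calls at 48 h came from ruxolitinib.

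The members' calls are read against the share of all tested genes called in the same comparison. Ruxolitinib at 4 h lowered 3 of the 4 genes, where 8.72% of all genes were called (5.24% lower). Momelotinib at 4 h lowered the same 3, where 6.3% were called (4.02% lower), and pacritinib at 4 h lowered them too, where 30.8% were called (17.5% lower). Fedratinib at 4 h lowered 2, where 1.85% were called (1.23% lower). Itacitinib at 4 h changed 0 of 4 by edgeR, where 0.834% of all genes were called; 1 member had an unadjusted p under 0.05, and DESeq2 called that 1, BCL2L1.

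At 48 h, ruxolitinib lowered 3 members and raised 1, where 25.9% of all genes were called (13.4% lower and 12.5% higher). Fedratinib raised 1, where 8.08% were called (3.83% higher). Momelotinib and pacritinib each changed 0 of 4 by edgeR and by DESeq2, with 0 at an unadjusted p under 0.05, where 2.5% and 18.6% of all genes were called. Itacitinib also changed 0 of 4 by edgeR and by DESeq2, with 2 at an unadjusted p under 0.05 (BCL2L1 and BCL2L2), where 0.541% were called. A count of 0 of 4 is near what these shares of all genes give, so nothing is read from it about the members.

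**Figure D2:**
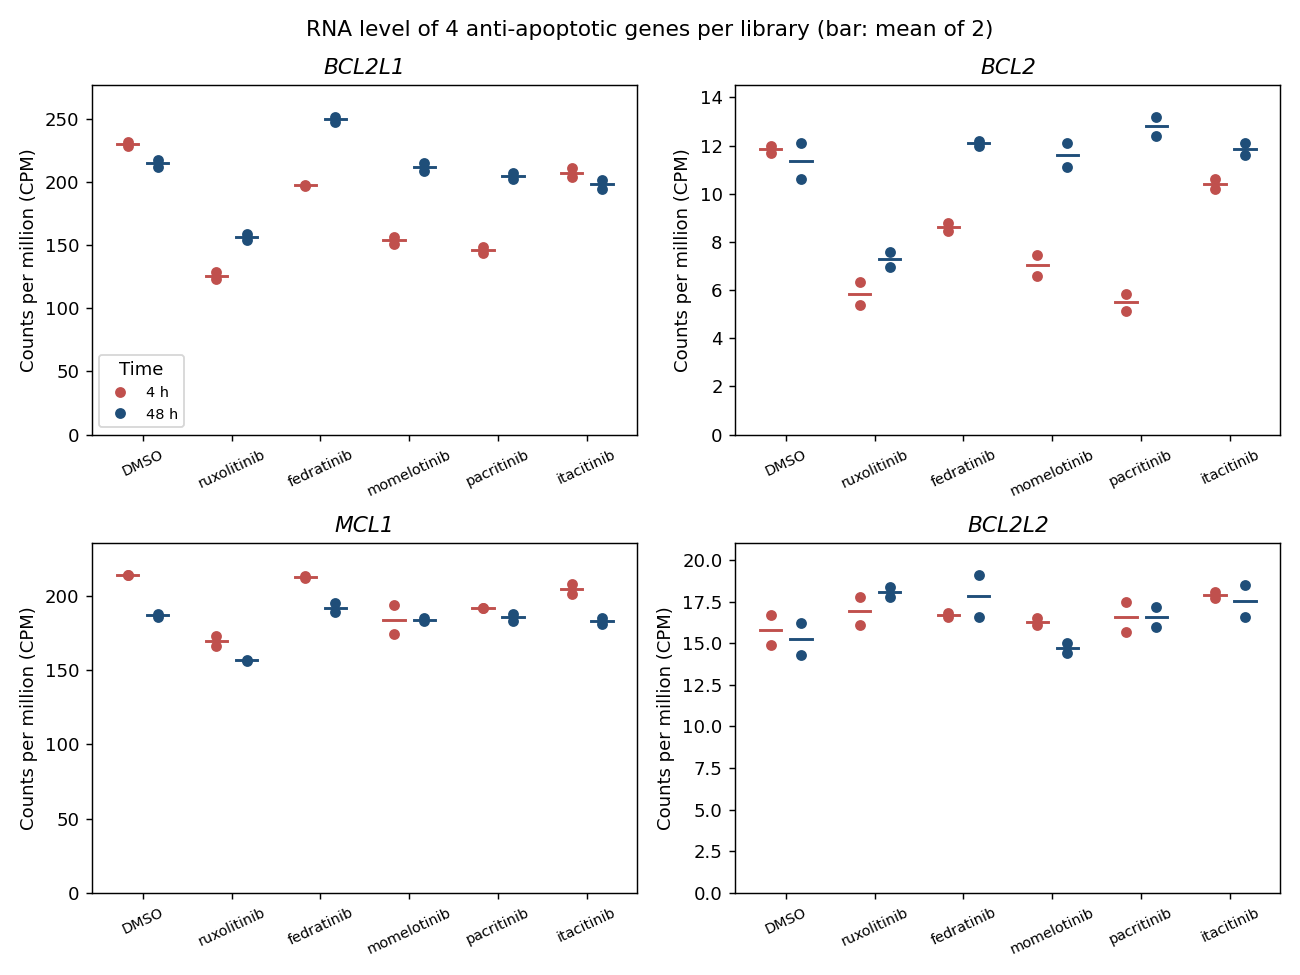
Level of each gene in every library: the vertical axes are CPM from 0, each point is 1 library, each short bar is the mean of 2, red is 4 h and blue is 48 h. BCL2L1 and BCL2 are low with ruxolitinib at both times and low with momelotinib and pacritinib at 4 h only, and BCL2L2 stays between 14.3 and 19.1 CPM.

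BCL2L1, which encodes BCL-XL, fell with 4 inhibitors at 4 h. Libraries 1 and 2 gave 232 and 229 CPM with DMSO, 129 and 123 under ruxolitinib, 149 and 144 under pacritinib, and 157 and 151 under momelotinib. It was 198 and 197 CPM with fedratinib and 211 and 204 with itacitinib. All 10 inhibitor libraries lay below both DMSO libraries. In the order from ruxolitinib up to itacitinib, neighbouring groups did not overlap at this time. Of these neighbours, pacritinib and momelotinib (adjusted p = 0.299) and fedratinib and itacitinib (adjusted p = 0.503) did not differ by call. Here and below, lack of overlap is a description only. The share of all genes without overlap is not given, and groups of 2 libraries can part without a called change. Against DMSO, the log2 fold change of BCL2L1 was -0.87 ± 0.04 with ruxolitinib (SE, adjusted p = 9.28e-21), or 54.6% of the DMSO level. It was -0.65 ± 0.04 with pacritinib (adjusted p = 2.41e-16), -0.58 ± 0.04 with momelotinib (adjusted p = 3.22e-14) and -0.22 ± 0.04 with fedratinib (adjusted p = 0.00184). With itacitinib it was -0.15 ± 0.04 (adjusted p = 0.0864, 95% interval -0.24 to -0.06), which edgeR did not call and DESeq2 did (adjusted p = 0.0222).

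At 48 h, BCL2L1 was still low with ruxolitinib and was high with fedratinib. CPM values were 212 and 218 under DMSO, 159 and 154 under ruxolitinib, and 252 and 248 under fedratinib. The fedratinib libraries were the highest of all 24, and the ruxolitinib libraries the lowest at this time. Against DMSO, the log2 fold change was -0.46 ± 0.04 with ruxolitinib (adjusted p = 6.44e-12), or 72.8% of the DMSO level, and 0.22 ± 0.04 with fedratinib (adjusted p = 0.000576). Momelotinib gave 209 and 215 CPM, pacritinib 207 and 203, and itacitinib 202 and 195. Of these groups only momelotinib overlapped DMSO, and none was called, with log2 fold changes of -0.02 (95% interval -0.11 to 0.07), -0.07 (-0.16 to 0.02) and -0.12 (-0.20 to -0.03).

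BCL2, the founding gene of the family, had the lowest log2 fold change of the 4 with each inhibitor at 4 h, at a low level of expression; differences between genes were not tested. At 4 h its level was 12 and 11.7 CPM with DMSO, 5.12 and 5.85 with pacritinib, 5.37 and 6.33 with ruxolitinib, and 6.58 and 7.47 with momelotinib. It was 8.47 and 8.79 CPM with fedratinib and 10.6 and 10.2 with itacitinib. All 10 inhibitor libraries lay below both DMSO libraries, while the pacritinib and ruxolitinib groups overlapped. The log2 fold change was -1.11 ± 0.12 with pacritinib (adjusted p = 2.6e-10), -1.01 ± 0.12 with ruxolitinib (adjusted p = 1.13e-08) and -0.75 ± 0.11 with momelotinib (adjusted p = 7.33e-06). Pacritinib thus left 46.5% and ruxolitinib 49.8% of the DMSO level. With fedratinib the log2 fold change was -0.45 ± 0.11 (adjusted p = 0.0205), a call that was lost without DMSO replicate 1 (0.107) or 2 (0.157), without fedratinib replicate 1 (0.139) or 2 (0.128), and in a fit of the 4 h libraries alone (0.0586). With itacitinib it was -0.19 (95% interval -0.41 to 0.04, adjusted p = 0.568).

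At 48 h, only ruxolitinib lowered BCL2 among the 5 inhibitors. Its level was 12.1 and 10.6 CPM with DMSO and 6.95 and 7.60 with ruxolitinib, with no overlap. This was a log2 fold change of -0.64 ± 0.12 (adjusted p = 2.21e-05), or 64.0% of the DMSO level. The other 8 inhibitor libraries ran from 11.1 to 13.2 CPM, the highest pair being pacritinib with 12.4 and 13.2. Pacritinib therefore held both the lowest group mean of BCL2 (5.49 ± 0.512 CPM at 4 h, SD, n = 2) and the highest (12.8 ± 0.556 CPM at 48 h). Against DMSO of the same time, its log2 fold change at 48 h was 0.17 (95% interval -0.05 to 0.39, adjusted p = 0.301).

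MCL1, whose protein is degraded within a short time, was lowered at 4 h by 3 inhibitors, with log2 fold changes nearer 0 than those of BCL2L1 and BCL2. At 4 h its level was 214 and 214 CPM with DMSO, 166 and 173 with ruxolitinib, 174 and 194 with momelotinib, and 192 and 192 with pacritinib. It was 212 and 213 CPM with fedratinib and 208 and 201 with itacitinib. The 2 momelotinib libraries stood apart by more than those of any other group at this time, and all 10 inhibitor libraries lay below both DMSO libraries, those of fedratinib only just. Against DMSO, the log2 fold change was -0.34 ± 0.05 with ruxolitinib (adjusted p = 2.84e-07), or 79.1% of the DMSO level. It was -0.22 ± 0.05 with momelotinib (adjusted p = 0.000906) and -0.16 ± 0.05 with pacritinib (adjusted p = 0.00588). Without momelotinib replicate 1 the former became -0.14 (adjusted p = 0.0922), and without pacritinib replicate 2 the latter became -0.15 (adjusted p = 0.0538). With fedratinib it was -0.01 (95% interval -0.10 to 0.08) and with itacitinib -0.07 (-0.16 to 0.02), and neither was called.

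At 48 h, MCL1 was lower with ruxolitinib. Its level was 188 and 186 CPM with DMSO and 156 and 157 with ruxolitinib, the lowest libraries of all 24. This was a log2 fold change of -0.26 ± 0.05 (adjusted p = 1.14e-05), or 83.4% of the DMSO level. The other 4 inhibitors left 181 to 195 CPM, and their log2 fold changes of -0.03 to 0.04 were not called. MCL1 was also the member that moved in the solvent control: DMSO at 48 h was lower than DMSO at 4 h (-0.19 ± 0.05, adjusted p = 0.00319), where 8.67% of all genes were called (4.48% lower). That call was lost without DMSO replicate 2 of 48 h (adjusted p = 0.0502). Over the same interval, BCL2L1 gave -0.10 (adjusted p = 0.151), BCL2 -0.06 (0.825) and BCL2L2 -0.06 (0.78).

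BCL2L2, which encodes BCL-W, had no call at 4 h and 1 at 48 h. At 4 h its level was 14.9 and 16.7 CPM with DMSO, 16.1 and 17.8 with ruxolitinib, 17.5 and 15.7 with pacritinib, and 17.7 and 18.1 with itacitinib. It was 16.6 and 16.8 CPM with fedratinib and 16.5 and 16.1 with momelotinib. The groups overlapped DMSO except itacitinib, and the log2 fold changes of 0.04 to 0.18 were not called. At 48 h it was 16.2 and 14.3 CPM with DMSO and 18.4 and 17.8 with ruxolitinib, with a log2 fold change of 0.25 ± 0.10 (adjusted p = 0.0482). That call was lost by DESeq2 (adjusted p = 0.0596), with RLE scaling (0.0531) and without a low-count filter (0.0739). It was also lost without DMSO replicate 2 (0.413), ruxolitinib replicate 1 (0.214) or ruxolitinib replicate 2 (0.115). Fedratinib (16.6 and 19.1 CPM) and itacitinib (16.6 and 18.5 CPM) lay above both DMSO libraries as well. Their log2 fold changes of 0.23 (95% interval 0.04 to 0.43) and 0.21 (0.02 to 0.39) were close to that of ruxolitinib and were not called. Momelotinib gave 14.4 and 15.0 CPM and pacritinib 16.0 and 17.2. PPP1R3E, the gene on the opposite strand that shares exon bases with BCL2L2, was called higher with ruxolitinib at 48 h (0.51 ± 0.13, adjusted p = 0.00242). It was also called higher with pacritinib at 48 h (0.49 ± 0.13, adjusted p = 0.00511), where BCL2L2 was at 0.13 and not called (adjusted p = 0.39). The part of PPP1R3E in the BCL2L2 values was not tested.

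**Figure D3:**
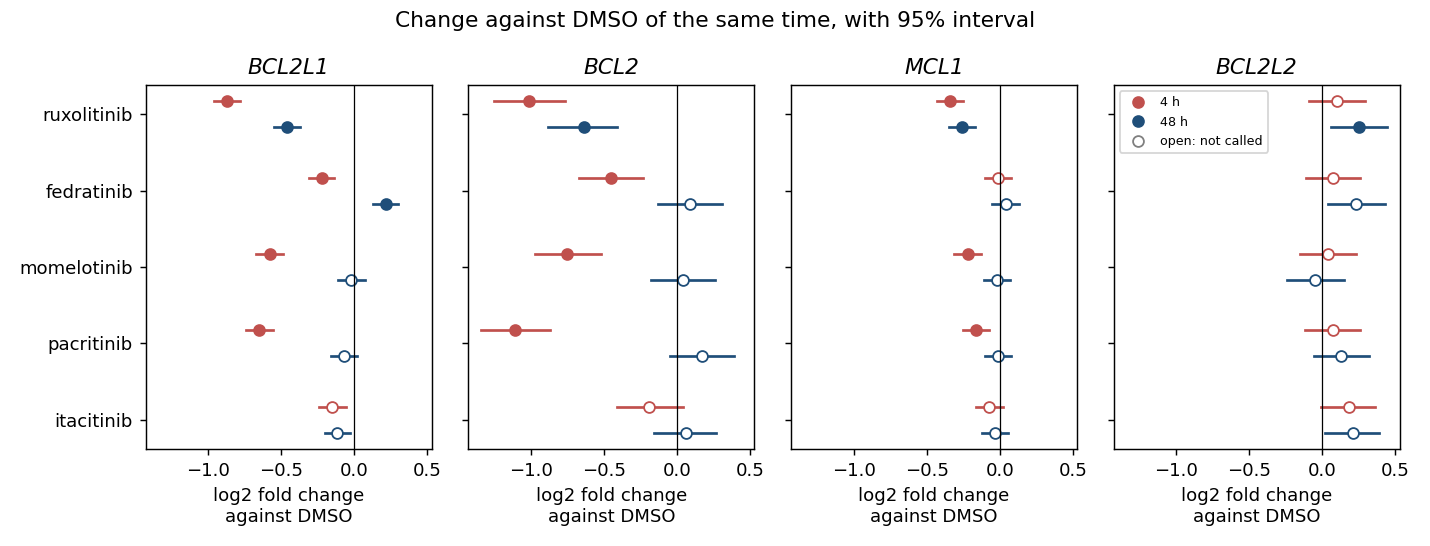
Change of each gene with each inhibitor: the horizontal axes are log2 fold changes against DMSO of the same time, points are estimates from 2 libraries against 2, lines are 95% intervals, and open points were not called. Called falls at 4 h run from -1.11 to -0.22 for BCL2 and BCL2L1 and from -0.34 to -0.16 for MCL1, and only ruxolitinib keeps called falls at 48 h.

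Over the 12 groups, the order of the BCL2L1 and BCL2 levels set ruxolitinib and the 4 h groups of momelotinib and pacritinib apart. MCL1 did not have this order: pacritinib at 4 h (192 CPM) stood above DMSO at 48 h (187). For BCL2L1, ruxolitinib at 48 h (157 ± 3.90 CPM, SD, n = 2) and momelotinib at 4 h (154 ± 4.50) overlapped, and below them came pacritinib (147 ± 3.52) and ruxolitinib (126 ± 4.38) at 4 h. Above these, 8 groups ran from 197 ± 1.21 CPM (fedratinib at 4 h) to 250 ± 2.38 (fedratinib at 48 h). BCL2 had the same 4 groups at the bottom, from 5.49 to 7.27 CPM, with overlap between pacritinib and ruxolitinib at 4 h and between momelotinib at 4 h and ruxolitinib at 48 h. For MCL1 the lowest groups were ruxolitinib at 48 h (156 ± 0.674 CPM) and at 4 h (169 ± 4.67), which did not overlap. For BCL2L2 each of the 11 neighbouring pairs of groups in the order overlapped, so its groups did not differ from their neighbours beyond the spread of libraries.

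The change against DMSO was then compared between 48 h and 4 h by an interaction term, which asks whether a change lasted. The terms of all inhibitors share the DMSO libraries of both times, so a like direction over inhibitors is not repeated evidence. BCL2L1 and BCL2 stood higher relative to DMSO at 48 h than at 4 h with several inhibitors, and MCL1 and BCL2L2 had no called difference. For ruxolitinib 1 member was called, where 9.08% of all genes were (4.51% higher): BCL2L1, whose log2 fold change was higher at 48 h by 0.41 ± 0.06 (SE, adjusted p = 2.83e-06). For fedratinib 2 members were called (4.26% of all genes, 2.14% higher), BCL2L1 by 0.44 ± 0.06 (adjusted p = 4.47e-06) and BCL2 by 0.54 ± 0.16 (adjusted p = 0.0323). For momelotinib the same 2 were called (2.69% of all genes, 1.8% higher), BCL2L1 by 0.56 ± 0.06 (adjusted p = 1.37e-08) and BCL2 by 0.78 ± 0.16 (adjusted p = 0.00181). For pacritinib they were called again (18.4% of all genes, 10.5% higher), BCL2L1 by 0.58 ± 0.06 (adjusted p = 1.09e-09) and BCL2 by 1.28 ± 0.16 (adjusted p = 6.23e-08). The call of BCL2 with fedratinib was lost in 7 of the 8 fits that left out 1 library, all but the fit without DMSO replicate 1 of 48 h, with adjusted p from 0.0595 to 0.208.

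With ruxolitinib, the difference for BCL2 was 0.36 ± 0.17 and was not called (adjusted p = 0.193, 95% interval 0.03 to 0.70), so a change in the size of its fall between the times was not shown. For MCL1 the differences with ruxolitinib and pacritinib were 0.08 (95% interval -0.05 to 0.21) and 0.15 (0.02 to 0.27), and with momelotinib 0.20 (0.07 to 0.33, adjusted p = 0.092). The last passed the threshold without momelotinib replicate 2 of 4 h (0.28, adjusted p = 0.0103). For itacitinib the differences were 0.24 for BCL2 and 0.03 for each of the other genes. None of these 4 was called by edgeR or DESeq2 or had an unadjusted p under 0.05, where 0% of all genes were called by edgeR.

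**Figure D4:**
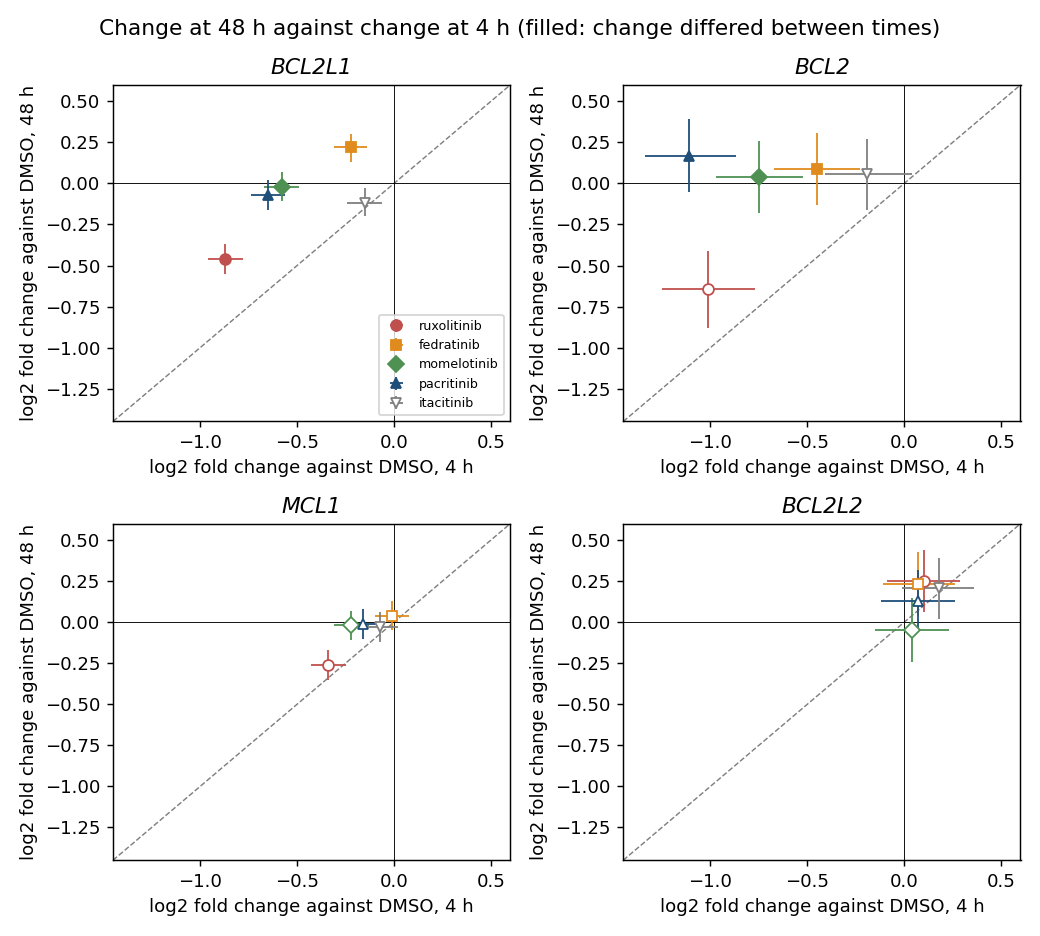
Change at 48 h (vertical axis) against change at 4 h (horizontal axis), both as log2 fold changes against DMSO of the same time, with 95% intervals, 1 symbol per inhibitor and a dashed line of equal change. Filled symbols had a called difference between the times: BCL2L1 with 4 inhibitors and BCL2 with 3, all above the line.

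The inhibitors were given at 1 dose, 500 nM, so they were compared with each other at matched dose and time, in 10 pairs per time, with p adjusted over all tested genes in each pair and not over the 20 pairs. Ruxolitinib and itacitinib both carry a pyrrolopyrimidine joined to a pyrazole; the pyrazole bears a cyclopentyl side chain in ruxolitinib and an azetidine linked to a piperidine in itacitinib. Fedratinib, momelotinib and pacritinib are anilinopyrimidines, and pacritinib is closed into a macrocycle. As background, ruxolitinib and momelotinib are known as inhibitors of JAK1 and JAK2, fedratinib and pacritinib act more on JAK2, and itacitinib on JAK1.

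Ruxolitinib and itacitinib gave different levels of 3 members at both times. At 4 h, ruxolitinib libraries were lower by log2 fold changes of -0.72 ± 0.04 for BCL2L1 (adjusted p = 1.51e-17), -0.82 ± 0.12 for BCL2 (adjusted p = 3.1e-06) and -0.27 ± 0.05 for MCL1 (adjusted p = 3.8e-05), where 6.19% of all genes were called. At 48 h the values were -0.34 ± 0.04 (adjusted p = 2.02e-08), -0.70 ± 0.11 (3.53e-06) and -0.23 ± 0.05 (0.000119), where 22.2% were called. BCL2L2 was not called in this pair, with 95% intervals of -0.27 to 0.11 at 4 h and -0.15 to 0.22 at 48 h.

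Among the 3 anilinopyrimidines, fedratinib left the highest levels at 4 h. BCL2L1 was higher with fedratinib than with momelotinib by 0.36 ± 0.04 (adjusted p = 1.21e-07), where 2 members and 1.61% of all genes were called, and than with pacritinib by 0.43 ± 0.04 (adjusted p = 1.5e-10), where 3 members and 28.9% of all genes were called. BCL2 was higher with fedratinib than with pacritinib by 0.65 ± 0.12 (adjusted p = 3.35e-05), and against momelotinib it was not called (0.29, 95% interval 0.06 to 0.53, adjusted p = 0.25). Momelotinib and pacritinib did not differ by call in BCL2L1 (0.07, 95% interval -0.02 to 0.16) or MCL1 (-0.06, -0.15 to 0.03). Their difference in BCL2 (0.36 ± 0.12, adjusted p = 0.0304), the 1 member called where 21.1% of all genes were, was lost without momelotinib replicate 2 (0.26, adjusted p = 0.292), without pacritinib replicate 1 (0.26, adjusted p = 0.252) and in the 4 h libraries alone (adjusted p = 0.0548).

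The MCL1 differences between inhibitors at 4 h were small. MCL1 was higher with fedratinib than with momelotinib by 0.21 ± 0.05 (adjusted p = 0.0049), which became 0.13 (adjusted p = 0.36) without momelotinib replicate 1 and lost its call without fedratinib replicate 2 (adjusted p = 0.0736). Against pacritinib it was higher by 0.15 ± 0.05 (adjusted p = 0.0106), a call lost without fedratinib replicate 2 (0.0691), pacritinib replicate 1 (0.0577) or pacritinib replicate 2 (0.0701).

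Ruxolitinib stood below the anilinopyrimidines in BCL2L1 at 4 h. The difference on the log2 scale was -0.65 ± 0.04 against fedratinib (adjusted p = 8.69e-16), where 3 members and 3.87% of all genes were called. It was -0.29 ± 0.04 against momelotinib (adjusted p = 3.85e-05), the 1 member called where 0.753% of all genes were. Against pacritinib it was -0.22 ± 0.04 (adjusted p = 0.000131), where 2 members and 25.9% of all genes were called. BCL2 did not differ by call between ruxolitinib and pacritinib (0.10, 95% interval -0.16 to 0.36) or momelotinib (-0.26, -0.51 to -0.01, adjusted p = 0.561). Against fedratinib BCL2 was lower with ruxolitinib (-0.56 ± 0.12, adjusted p = 0.00274), a call lost without ruxolitinib replicate 1 (-0.45, adjusted p = 0.139) or fedratinib replicate 2 (-0.53, adjusted p = 0.06). MCL1 was lower with ruxolitinib than with pacritinib (-0.18 ± 0.05, adjusted p = 0.00202), a call lost without ruxolitinib replicate 1 (adjusted p = 0.0512).

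At 48 h, ruxolitinib was below each of the other inhibitors in BCL2L1, BCL2 and MCL1. For BCL2L1 the log2 fold changes were -0.68 ± 0.04 against fedratinib, -0.44 ± 0.04 against momelotinib and -0.39 ± 0.04 against pacritinib, and for BCL2 they were -0.74 ± 0.12, -0.68 ± 0.12 and -0.82 ± 0.12. In these 3 pairs 21.1%, 21.2% and 24.8% of all genes were called. Fedratinib was above momelotinib (0.24 ± 0.04, adjusted p = 0.00011), pacritinib (0.29 ± 0.04, adjusted p = 2.25e-06) and itacitinib (0.33 ± 0.04, adjusted p = 3.78e-07) in BCL2L1, the 1 member called in each of these pairs, where 7.06%, 12.4% and 6.23% of all genes were called. BCL2L2 had 1 call among 20 pairs, higher with ruxolitinib than with momelotinib at 48 h (0.29 ± 0.10, adjusted p = 0.0206), and each of the 4 fits that left out 1 of these libraries lost it (adjusted p from 0.0631 to 0.142).

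At 4 h, itacitinib libraries were above those of momelotinib in 3 members, where 3.37% of all genes were called, and above those of pacritinib in BCL2L1 and BCL2, where 29.3% were called. The log2 fold change of BCL2L1 against itacitinib was -0.43 ± 0.04 with momelotinib (adjusted p = 8.29e-10) and -0.50 ± 0.04 with pacritinib (adjusted p = 1.56e-12). The MCL1 call between momelotinib and itacitinib (-0.15 ± 0.05, adjusted p = 0.0479) was lost without momelotinib replicate 1 (0.535), itacitinib replicate 1 (0.273) or itacitinib replicate 2 (0.123). It was also lost with RLE scaling (0.0584), without a filter (0.14), without robust estimation (0.0714) and in the 4 h libraries alone (0.109).

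Over the 20 pairs, BCL2L1 was called in 15, BCL2 in 10, MCL1 in 10 and BCL2L2 in 1. The share of all genes called per pair ran from 0.454% (fedratinib and itacitinib at 4 h) to 29.3% (pacritinib and itacitinib at 4 h). Part of these counts thus comes from pairs where calls were common, and the 1 call of BCL2L2 came where 21.2% of all genes were called. The pairs without a call still allowed differences of up to 0.18 on the log2 scale for BCL2L1, 0.53 for BCL2, 0.21 for MCL1 and 0.47 for BCL2L2, as the farthest ends of their 95% intervals. Without 1 library, 3 such pairs gained a call: MCL1 between ruxolitinib and momelotinib at 4 h without momelotinib replicate 1 (-0.20, adjusted p = 0.04), MCL1 between momelotinib and pacritinib at 4 h without momelotinib replicate 2 (-0.15, 0.0442), and BCL2L2 between fedratinib and momelotinib at 48 h without fedratinib replicate 1 (0.38, 0.047). Fedratinib against itacitinib at 4 h, where 0.454% of all genes were called, had 0 members called by edgeR and by DESeq2 and 1 (BCL2) with an unadjusted p under 0.05. Their difference in BCL2L1 was -0.07 (95% interval -0.16 to 0.01) and in BCL2 -0.27 (-0.49 to -0.04). For momelotinib, itacitinib and pacritinib, the pairs at 48 h had 0 members called by edgeR and by DESeq2, and 2 had an unadjusted p under 0.05, both between momelotinib and itacitinib. In these pairs 8.29% (momelotinib and pacritinib), 1.38% (momelotinib and itacitinib) and 15.7% (pacritinib and itacitinib) of all genes were called.

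The partners of the 4 genes in the apoptotic pathway were read from lists of 44 other tested genes. Ruxolitinib at 4 h lowered 5 and raised 3 of them (8.72% of all genes were called), momelotinib lowered 4 and raised 2 (6.3%), and pacritinib lowered 7 and raised 9 (30.8%). Fedratinib and itacitinib at 4 h changed 0 by edgeR and by DESeq2, with 8 and 4 at an unadjusted p under 0.05. At 48 h, ruxolitinib lowered 5 and raised 11 (25.9% of all genes), fedratinib lowered 7 and raised 4 (8.08%), and pacritinib lowered 5 and raised 6 (18.6%). With pacritinib at both times, the share of the 44 genes called was near that of all genes. Momelotinib and itacitinib at 48 h changed 0 by edgeR, with 6 and 7 at an unadjusted p under 0.05 and 0 and 1 called by DESeq2. The median log2 fold change of the 44 genes was 0.05 with ruxolitinib at 48 h and between -0.06 and 0.02 in the other 9 comparisons, against -0.00 to 0.01 over all genes.

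The pore-forming effectors and their BH3-only triggers did not move as 1 group. At 4 h, 8.72% of all genes were called with ruxolitinib, 6.3% with momelotinib and 30.8% with pacritinib. At 48 h these shares were 25.9% with ruxolitinib, 8.08% with fedratinib and 18.6% with pacritinib. With pacritinib at 4 h and with ruxolitinib at 48 h, 3 of 7 BH3-only genes were called, and nothing is read from these counts about the group. BAK1, for the pore former BAK, was lower at 4 h with ruxolitinib (-0.27 ± 0.08, adjusted p = 0.0341), momelotinib (-0.27 ± 0.08, adjusted p = 0.042) and pacritinib (-0.29 ± 0.08, adjusted p = 0.00647), the 1 of 3 effectors called in each. Of the 7 BH3-only genes tested, PMAIP1, for NOXA, which binds MCL-1, was lower at 4 h with ruxolitinib (-0.36 ± 0.07) and momelotinib (-0.24 ± 0.07) and higher with pacritinib (0.21 ± 0.07). BCL2L11, for BIM, was higher with pacritinib at 4 h (0.31 ± 0.06) and with ruxolitinib at 48 h (0.25 ± 0.06), and BMF was lower with pacritinib at 4 h (-1.03 ± 0.30). BBC3, for PUMA, was higher at 48 h with ruxolitinib (0.48 ± 0.11), fedratinib (0.45 ± 0.11) and pacritinib (0.36 ± 0.11), after a fall in DMSO between the times (-0.82 ± 0.10).

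Downstream of the mitochondria, called genes moved in both directions. Of the 8 apoptosome and caspase genes, 3 were called with pacritinib at 4 h, where 30.8% of all genes were. With ruxolitinib at 48 h 3 of 8 were called, where 25.9% of all genes were. Such counts are near those shares, so nothing is read from them about the pathway. With fedratinib and pacritinib at 48 h, 8.08% and 18.6% of all genes were called. APAF1, for the scaffold of the apoptosome, was lower at 4 h with pacritinib (-0.31 ± 0.08), and it was again lower at 48 h with pacritinib (-0.52 ± 0.08) and fedratinib (-0.29 ± 0.08). With ruxolitinib at 48 h, CASP6 (0.45 ± 0.12) and HTRA2 (0.21 ± 0.06) were higher and CYCS, for cytochrome c, was lower (-0.26 ± 0.05). Among 5 inhibitor of apoptosis genes, BIRC5, for survivin, was higher with pacritinib at 4 h (0.26 ± 0.05) and BIRC2 with ruxolitinib at 48 h (0.24 ± 0.07). BIRC3 was lower with fedratinib at 48 h (-1.02 ± 0.33). Of 5 genes for MCL-1 protein turnover, BTRC was lower with pacritinib at 4 h (-0.36 ± 0.07) and DESI1, also on that list, with ruxolitinib at 48 h (-0.26 ± 0.06). No other of the 5 turnover genes was called against DMSO.

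Genes upstream of BCL2L1 moved with it in some comparisons and against it in others. Of the 7 on this list, 3 each were called at 4 h with ruxolitinib, momelotinib and pacritinib, where 8.72%, 6.3% and 30.8% of all genes were. At 48 h, 4 were called with ruxolitinib (25.9% of all genes), 5 with fedratinib (8.08%) and 4 with pacritinib (18.6%). EPOR, for the erythropoietin receptor, was higher at 4 h with ruxolitinib (0.50 ± 0.07) and momelotinib (0.37 ± 0.07) and reached 1.00 ± 0.07 with ruxolitinib at 48 h, while BCL2L1 was lower in all 3 comparisons. STAT5A and STAT5B, for the transcription factors that JAK2 activates, were higher with ruxolitinib at 48 h (0.31 ± 0.04 and 0.32 ± 0.04). With fedratinib at 48 h, where BCL2L1 was higher, EPOR (0.39 ± 0.07), STAT5A (0.14 ± 0.04) and STAT5B (0.15 ± 0.04) were higher too. STAT3 was lower at 4 h with ruxolitinib (-0.20 ± 0.04) and momelotinib (-0.17 ± 0.04), and ETS1 was lower at 48 h with fedratinib and pacritinib (-0.44 ± 0.05 in each). JAK2 itself was higher with ruxolitinib at 4 h (0.27 ± 0.05) and 48 h (0.70 ± 0.05). The STAT5 target genes PIM1 and CISH were lower with ruxolitinib at 4 h (-1.69 ± 0.05 and -1.76 ± 0.08), beside -0.87 for BCL2L1. With pacritinib at 4 h, PIM1 (-0.25 ± 0.05) and CISH (-0.57 ± 0.07) were lower beside -0.65 ± 0.04 for BCL2L1, and differences between genes were not tested.

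Erythroid markers were higher in the ruxolitinib libraries of 48 h, in which BCL2L1, BCL2 and MCL1 were lower. All 7 of the list were called higher there, with a median log2 fold change of 0.72, against 0.01 over all genes, where 12.5% of all genes were called higher. At 48 h, 2 of 7 were called higher with fedratinib, 1 with momelotinib, 2 with pacritinib and 0 with itacitinib. Of all genes, 8.08%, 2.5%, 18.6% and 0.541% were called there in either direction. Of the 4 megakaryocytic markers, 2 were lower and 1 higher with ruxolitinib at 48 h (median -0.31), where 25.9% of all genes were called. At 4 h, 1 of 7 erythroid markers was called higher with ruxolitinib, 2 with momelotinib, 4 with pacritinib, 0 with fedratinib and 0 with itacitinib. Of all genes, 8.72%, 6.3%, 30.8%, 1.85% and 0.834% were called in these comparisons in either direction. The part of the higher erythroid markers with ruxolitinib at 48 h in the levels of the 4 genes was not tested. BNIP3L, for a mitochondrial protein that clears mitochondria from maturing red cells, was higher with ruxolitinib at both times (0.25 ± 0.05 and 0.51 ± 0.05), and so was FKBP8, whose protein binds BCL-2 (0.16 ± 0.04 and 0.29 ± 0.04).

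The genes whose log2 CPM followed each member most closely over the 24 libraries were named, out of 9440 whose mean log2 CPM was 3 or more. These correlations describe libraries that share groups and DMSO controls, and carry no p. For BCL2L1 they were RDH13 (Pearson r = 0.95), the kinase gene PIM2 (0.94) and TRIM8 (0.94), and the most opposed was CDKN1B (-0.90), for the cell cycle inhibitor p27. For BCL2 they were the phosphate carrier gene SLC20A1 (0.94), BEND3 (0.93) and the AP-1 gene FOSL1 (0.93), with KMT2E the most opposed (-0.93). For MCL1 they were the glucose carrier gene SLC2A3 (0.91), the hexokinase gene HK2 (0.89) and LRRC8B (0.88), with CPOX, for an enzyme of haem synthesis, the most opposed (-0.86). BCL2L2, which varied least, had no neighbour above 0.68 (TROAP), and its most opposed gene was DPP9 (-0.69).

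Promoter windows of 300 bases from RefSeq (GRCh38.p14) covered BCL2 with 1 window and BCL2L1 with 2. MCL1 and BCL2L2 had no entry. None of the 3 windows held the letters TTCNNNGAA, the form bound by STAT proteins, on either strand, nor the GATA form AGATAA. Of 35116 windows in the table, 7.66% held the former and 10.3% the latter. The ETS form CCGGAAGT occurred 1 time, in a BCL2L1 window, and in 4.14% of all windows. These motifs were chosen after the sequences were seen, and a match or its absence in 300 bases is a description only.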

How the data were processed

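RNA sequencing counts of HEL cells were analysed for 24 libraries. The submitters' processing notes name bcl2fastq, STAR 2.5.1a, edgeR and the GRCh38 build. Values are read counts per gene, deposited as whole numbers with no normalization. How reads were counted, and whether by strand, is not given in the sources used here. Of 34343 rows, 130 repeated an identifier, which left 34213 genes.

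Counts were filtered with filterByExpr, scaled by TMM and fitted with edgeR 4.0.16 (limma 3.58.1, R 4.3.3) by glmQLFit with robust estimation, 1 mean per group over all 24 libraries. Degrees of freedom were 12 residual and 34 prior (median), and the common biological coefficient of variation was 0.0468. In each of 36 comparisons, Benjamini-Hochberg adjustment ran over 16076 genes, and an adjusted p under 0.05 was called. CPM used the TMM-scaled totals, and RPKM used the union of GENCODE 29 exons. The code was tested on simulated data. In each group, the libraries differed by more than sampling noise (chi-square per degree of freedom 3.58 to 15.8), so none was counted as a copy.

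Alternatives were DESeq2 1.42.0, RLE scaling, other filters, 1 time point only, a replicate block, each library left out and, added after seeing the data, a fit without robust estimation. Genes were named by rule: the 4 members, JAK2, PIM1 and CISH, up to 4 called genes of each list with the largest change per comparison, 3 nearest and 1 most opposed neighbour per member, and overlapping genes. The members and lists were chosen with earlier results of these data known. A few list genes are not reported here by name.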

Additional observations from a re-analysis of the deposited data

Results flagged for a closer look

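For 7 results, the change against DMSO differed between 48 h and 4 h by the interaction test of edgeR, always toward a higher level at 48 h. The same DMSO libraries stand behind each of them, so the shared direction is not repeated evidence. For BCL2L1 the log2 fold change rose by 0.41 with ruxolitinib, 0.44 with fedratinib, 0.56 with momelotinib and 0.58 with pacritinib. For BCL2 it rose by 0.54 with fedratinib, 0.78 with momelotinib and 1.28 with pacritinib. BCL2L1 with fedratinib was called in opposite directions at the 2 times, -0.22 ± 0.04 at 4 h and 0.22 ± 0.04 at 48 h (SE). The value for BCL2 with fedratinib was called in the full fit and in 1 of the 8 fits that left out 1 library. Groups of 2 libraries were too small for a check of single outlying samples.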

How the results depend on the processing

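No result for a member changed sign while called, and the cause of each change below was not tested. The number of members called with fedratinib at 4 h was 2, and it was 1 with libraries of 1 time point only and in each fit that left out 1 library (range 1 to 1). With itacitinib at 4 h it was 0, and DESeq2 called 1. For DMSO at 48 h against 4 h it was 1, with a range of 0 to 1 when 1 library was left out. Of 280 values against DMSO under other settings, 4 lost and 1 gained a call; of 160 with 1 library left out, 9 lost one. Those fits take the spread of a group with a lone library from the remaining groups. Uncalled values changed sign in 46 cases, to -0.09 to 0.04.

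Counts over all genes moved more. With fedratinib at 4 h, 298 genes were called, and 146 in the libraries of 1 time point only; with itacitinib at 4 h these were 134 and 60. With itacitinib at 48 h, 87 were called, 146 by DESeq2, 142 without a filter and 171 in 1 time point only. Leaving out 1 library gave 65 to 166 for fedratinib, 1 to 239 for itacitinib, 503 to 833 against 1013 for momelotinib and 798 to 900 against 1402 for ruxolitinib at 4 h. At 48 h it gave 2 to 100 for itacitinib, 389 to 1019 against 1299 for fedratinib, 40 to 132 against 402 for momelotinib and 1587 to 2250 against 2988 for pacritinib. For DMSO over time it gave 545 to 753 against 1394.

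With a replicate block, 3 members were called with ruxolitinib at 4 h, as without it, and no call of a member changed. The differences between replicates 1 and 2 correlated at -0.35 to 0.38 over 66 pairs of groups (median 0.03), and 18 exceeded 0.1. Over all genes, the block gave more calls in each comparison against DMSO and in DMSO over time. With ruxolitinib at 4 h these were 1539 against 1402, and with fedratinib at 4 h 379 against 298. These values do not settle whether the replicate numbers pair the libraries.

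With the longest coding transcript as length, the order of BCL2L1 and MCL1 turned with ruxolitinib at 4 h (49.8% and 44.5%, in place of 46.7% and 47.7%). With 2 libraries per group, changes are resolved less well at the low counts of BCL2 and BCL2L2: against DMSO at 4 h with fedratinib, the SE was 0.11 and 0.09, and 0.04 for BCL2L1.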
